A study of Mus musculus with 9 samples.

Results

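The 9 genes described here encode enzymes or enzyme subunits of the mitochondrial tricarboxylic acid cycle: Cs, Idh2, Idh3a, Idh3b, Ogdh, Sucla2, Sdha, Fh1 and Mdh2. They were chosen by symbol from a table of 21989 gene symbols, and all 9 passed the filter on low values that kept 11380 genes for testing. Gene expression was measured by poly-A RNA sequencing of heart tissue from male C57BL/6J mice in 3 groups of 3. Mice of the LD group underwent TAC, usually read as transverse aortic constriction, a surgical narrowing of the aorta against which the left ventricle must pump, and received Lingguizhugan decoction, a Chinese herbal preparation. Mice of the TAC group underwent the same operation and received distilled water, and mice of the sham group underwent a sham operation and received distilled water. All mice were 18 to 20 weeks old per the labels, which give no dose, time after the operation, litter, cage or sequencing batch. The tissue is called heart without a named chamber, so each value is a mean over all cells of the piece taken.

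The tricarboxylic acid cycle oxidises the acetyl group of acetyl-CoA, made from fatty acids, pyruvate and ketone bodies, to carbon dioxide and passes the electrons to the respiratory chain. Heart muscle is packed with mitochondria and depends on this cycle for most of its ATP. Citrate synthase (Cs) joins acetyl-CoA to oxaloacetate, and the NAD-dependent isocitrate dehydrogenase IDH3, built of the catalytic alpha subunit (Idh3a) with beta (Idh3b) and gamma (Idh3g) subunits, makes oxoglutarate. Idh2 is the NADP-dependent mitochondrial isocitrate dehydrogenase, a source of NADPH. Ogdh is the first component of the oxoglutarate dehydrogenase complex, Sucla2 the ATP-forming beta subunit of succinyl-CoA synthetase, Sdha the flavoprotein subunit of succinate dehydrogenase (respiratory complex II), Fh1 fumarase and Mdh2 mitochondrial malate dehydrogenase.

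Transcription of these enzymes is commonly linked to estrogen-related receptors (Esrra and relatives), NRF1 and GABPA. RefSeq promoter windows on GRCm38.p6, from 250 bases before to 50 bases after a transcript start, were matched by symbol for 8 of the 9 genes (13 windows), all but Idh3a. Exact matches on both strands were counted for the estrogen-related receptor element TCAAGGTCA, the NRF1 core GCATGCGC and the ETS core CCGGAAG that GABPA can bind; no pair of these motifs overlaps in the matches found. The receptor element was in 0 of the 13 windows and in 0.423% of all 32851 promoter windows. The NRF1 core was in 2 of the 13 windows, against 2.71% of all windows. Both belong to Ogdh and overlap each other, and other windows of Ogdh held no match. The ETS core was in 1 of the 13 windows, that of Idh3b, against 8.86% of all windows. Ogdh alone had more than 1 window, so the 13 do not weigh the genes equally. A match describes letters and not binding. The windows of Idh3b and Ogdh are shown because they hold these matches, and those of Idh2 and Sucla2 because the mRNAs of these genes differed in opposite directions in several libraries. Capitals mark a motif match on either strand, and each sequence runs 5′ to 3′ on the strand of its gene: Idh3b at chr2:130284402-130284701 (minus strand), Ogdh at chr11:6292308-6292607 (plus strand), Idh2 at chr7:80115301-80115600 (minus strand) and Sucla2 at chr14:73552536-73552835 (plus strand).
Idh3b: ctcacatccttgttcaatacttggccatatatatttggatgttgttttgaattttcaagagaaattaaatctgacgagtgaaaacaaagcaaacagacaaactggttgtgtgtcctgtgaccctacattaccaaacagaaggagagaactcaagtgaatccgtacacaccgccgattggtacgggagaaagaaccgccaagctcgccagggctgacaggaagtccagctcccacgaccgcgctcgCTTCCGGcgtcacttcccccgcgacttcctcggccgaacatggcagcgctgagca
Ogdh: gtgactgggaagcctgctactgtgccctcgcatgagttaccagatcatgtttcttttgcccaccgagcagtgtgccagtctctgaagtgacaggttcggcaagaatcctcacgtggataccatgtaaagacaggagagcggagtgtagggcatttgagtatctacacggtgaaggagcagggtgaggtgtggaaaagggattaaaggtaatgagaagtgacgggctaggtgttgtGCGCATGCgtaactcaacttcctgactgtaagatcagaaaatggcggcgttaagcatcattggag
Idh2: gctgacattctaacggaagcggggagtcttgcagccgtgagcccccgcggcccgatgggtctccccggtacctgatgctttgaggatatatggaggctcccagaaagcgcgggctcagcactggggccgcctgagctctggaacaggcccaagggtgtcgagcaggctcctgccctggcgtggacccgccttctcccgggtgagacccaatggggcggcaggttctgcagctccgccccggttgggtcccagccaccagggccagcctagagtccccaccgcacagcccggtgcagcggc
Sucla2: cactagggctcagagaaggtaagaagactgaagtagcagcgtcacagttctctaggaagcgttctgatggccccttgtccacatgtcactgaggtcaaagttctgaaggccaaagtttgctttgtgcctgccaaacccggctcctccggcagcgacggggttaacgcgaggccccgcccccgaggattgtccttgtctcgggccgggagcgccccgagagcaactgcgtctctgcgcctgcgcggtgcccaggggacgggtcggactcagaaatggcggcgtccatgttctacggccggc
On the strands shown the ETS core of Idh3b reads CTTCCGG and the NRF1 core of Ogdh reads GCGCATGC.

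Library totals recovered from the FPKM values lay between 7.41 and 18.0 M fragments in LD, between 8.39 and 14.9 M in TAC and between 14.5 and 18.1 M in sham (M, 1e6). The members were far from the limit of detection: the fewest recovered fragments for any member in any library were 1570, for Fh1, and the most were 52291, for Idh2. In 4 libraries (TAC replicates 2 and 3, sham replicates 1 and 3) between 90.2% and 93.6% of recovered counts from 1 to 20 were even, against 42.4% to 52.6% in the other 5, which include all 3 LD libraries. Above 1000, 52.0% to 55.4% of the counts of those 4 libraries were even, against 49.1% to 51.4% in the other 5. The reason for this split was not tested. TAC replicate 3 and LD replicate 3 lay at opposite ends of the first principal component, at -51.0 and 48.3, with the other 7 libraries between -10.4 and 17.1. Heart muscle genes were abundant in every library, with a summed level of 12 cardiomyocyte markers of 64476 to 95615 FPKM in LD, 49965 to 66118 in TAC and 65433 to 70660 in sham. The 6 skeletal muscle markers summed to 4.39 to 6.76 FPKM in LD, 2.22 to 8.25 in TAC and 2.82 to 5.26 in sham, with the myosins Myh4, Myh1 and Myh2 below 1 FPKM in every library. The 4 brown fat markers summed to 17.4 to 34.8 FPKM in LD, 15.3 to 28.0 in TAC and 22.4 to 24.8 in sham. Most of that sum was Cidea, at group means of 25.9, 21.8 and 23.5 FPKM in LD, TAC and sham, while Ucp1 and Elovl3 were below 1 FPKM in every library.

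Averaged over the 9 hearts, Mdh2 had the highest level of the 9 mRNAs at 1054 FPKM (fragment counts divided by gene length and by library size, so a level per length), followed by Idh2 at 703, Idh3b at 263, Sdha at 206, Cs at 161, Ogdh at 160, Fh1 at 160, Sucla2 at 145 and Idh3a at 136 FPKM. Mdh2 ranked between 74 and 109 among all genes of a library, and Ogdh, which varied most in rank, between 347 and 730. Each of the first 4 steps in this order held in 9 of 9 libraries, although the ranges over the libraries were free of overlap only between Idh2 and Idh3b. The order of the 5 lowest was not stable: Cs exceeded Ogdh in 3 of 9 libraries, Ogdh exceeded Fh1 in 6, Fh1 exceeded Sucla2 in 7 and Sucla2 exceeded Idh3a in 5. Mdh2 and Idh2 together made up 60.2% to 63.2% of the summed FPKM of the 9 genes in LD, 49.3% to 61.2% in TAC and 54.6% to 60.7% in sham. The order depends on the gene lengths the authors used. Those recovered from the values were shorter than the merged annotated exons for 7 of the 9 genes, for Mdh2 by the most (0.361 of the annotated length), and longer for Idh2 and Ogdh. Restated on annotated exon lengths, Idh2 came first at 758, followed by Mdh2 at 380 and Ogdh at 216, and Idh3a was again last at 64.8.

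**Figure D1:**
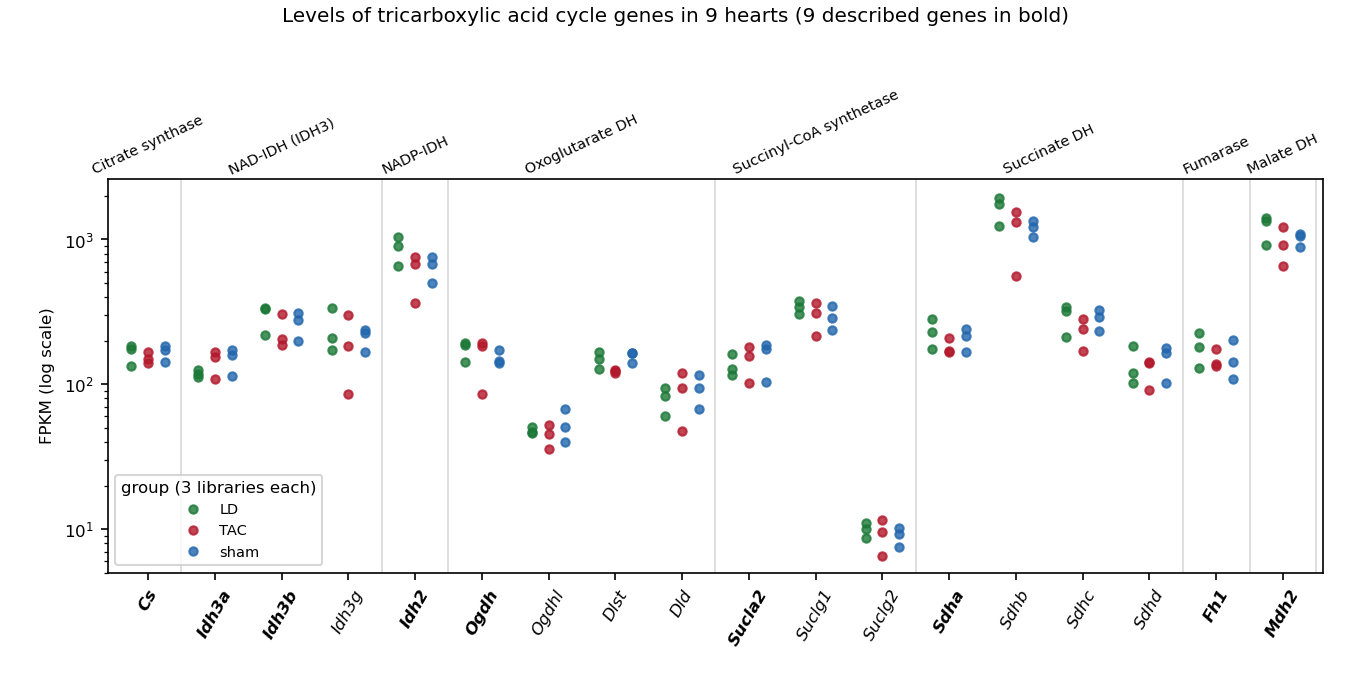
FPKM (log scale) of the 9 genes (bold) and of 9 other genes of the cycle, grouped by enzyme, with 1 point per library and LD, TAC and sham side by side in that order. Sdhb, Mdh2 and Idh2 lie highest and Suclg2 lowest, and the 3 groups overlap for each of the 9 bold genes.

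Among 9 other genes of the cycle, the iron-sulfur subunit Sdhb was the most abundant at a mean of 1326 FPKM over the 9 libraries. The succinyl-CoA synthetase alpha subunit Suclg1 stood at 309, the membrane anchor Sdhc at 269 and the gamma subunit Idh3g at 213 FPKM. The succinyltransferase Dlst stood at 142, the anchor Sdhd at 136, the shared dehydrogenase Dld at 86.3 and the Ogdh-like gene Ogdhl at 48.2 FPKM. Suclg2, the GTP-forming beta subunit of succinyl-CoA synthetase, had the lowest level of all the cycle genes shown at 9.39 FPKM. Sucla2 exceeded Suclg2 in every library, by 11.5 to 15.9 times in LD, 15.6 to 16.3 times in TAC and 13.8 to 18.9 times in sham.

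Citrate synthase showed the smallest spread of the 9 genes. Cs (chromosome 10, 128337734 to 128362479, plus strand; GRCm38 here and below) measured 133, 174 and 185 FPKM in LD replicates 1, 2 and 3, 151, 167 and 139 FPKM in TAC, and 172, 184 and 143 FPKM in sham. The highest and lowest of the 9 libraries, both of the LD group, differed 1.39-fold, and the 3 groups overlapped.

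For the isocitrate step, Idh3a (chromosome 9, 54586334 to 54604661, plus strand) measured 112, 117 and 125 FPKM in LD, 109, 167 and 154 FPKM in TAC, and 171, 160 and 114 FPKM in sham. The LD libraries lay close together and at the low end, with TAC replicate 1 and sham replicate 3 at a similar level, so the groups overlapped. Idh3b (chromosome 2, 130279309 to 130284547, minus strand) measured 218, 330 and 338 FPKM in LD, 206, 303 and 187 FPKM in TAC, and 276, 310 and 199 FPKM in sham. LD replicates 2 and 3 were the highest, while LD replicate 1 sat among the low libraries of the other groups. An exon of Idh3b overlaps one of Nop56 on the opposite strand, and the labels name no step that marks the strand, so fragments of the shared stretch cannot be told apart. Idh2 (chromosome 7, 80094846 to 80115392, minus strand) measured 654, 1038 and 896 FPKM in LD, 758, 674 and 365 FPKM in TAC, and 504, 760 and 676 FPKM in sham. LD replicates 2 and 3 exceeded every other library, TAC replicate 3 was the lowest of the 9, and LD replicate 1 lay within both other groups. The highest library exceeded the lowest 2.84-fold, the widest range among the 9 genes.

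At the oxoglutarate and succinyl-CoA steps, Ogdh (chromosome 11, 6291633 to 6356642, plus strand) measured 142, 187 and 194 FPKM in LD, 191, 184 and 85.1 FPKM in TAC, and 144, 141 and 172 FPKM in sham. TAC replicate 3 stood alone at the bottom, and the other 8 libraries spanned 141 to 194 FPKM. Sucla2 (chromosome 14, 73525319 to 73596142, plus strand) measured 127, 116 and 161 FPKM in LD, 101, 157 and 180 FPKM in TAC, and 175, 187 and 104 FPKM in sham. Here TAC replicate 3 was among the highest libraries, opposite to its place for Ogdh and Idh2, and TAC replicate 1 was the lowest.

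For the last steps, Sdha (chromosome 13, 74322254 to 74350280, minus strand) measured 175, 230 and 281 FPKM in LD, 171, 207 and 166 FPKM in TAC, and 217, 242 and 167 FPKM in sham. Fh1 (chromosome 1, 175600374 to 175625635, minus strand) measured 130, 226 and 181 FPKM in LD, 135, 175 and 139 FPKM in TAC, and 143, 201 and 109 FPKM in sham. Mdh2 (chromosome 5, 135778480 to 135790398, plus strand) measured 915, 1337 and 1401 FPKM in LD, 923, 1222 and 656 FPKM in TAC, and 1056, 1088 and 885 FPKM in sham. In all of these genes the highest library was LD replicate 2 or 3, LD replicate 1 sat in the lower part of the range, and the 3 groups overlapped.

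**Figure D2:**
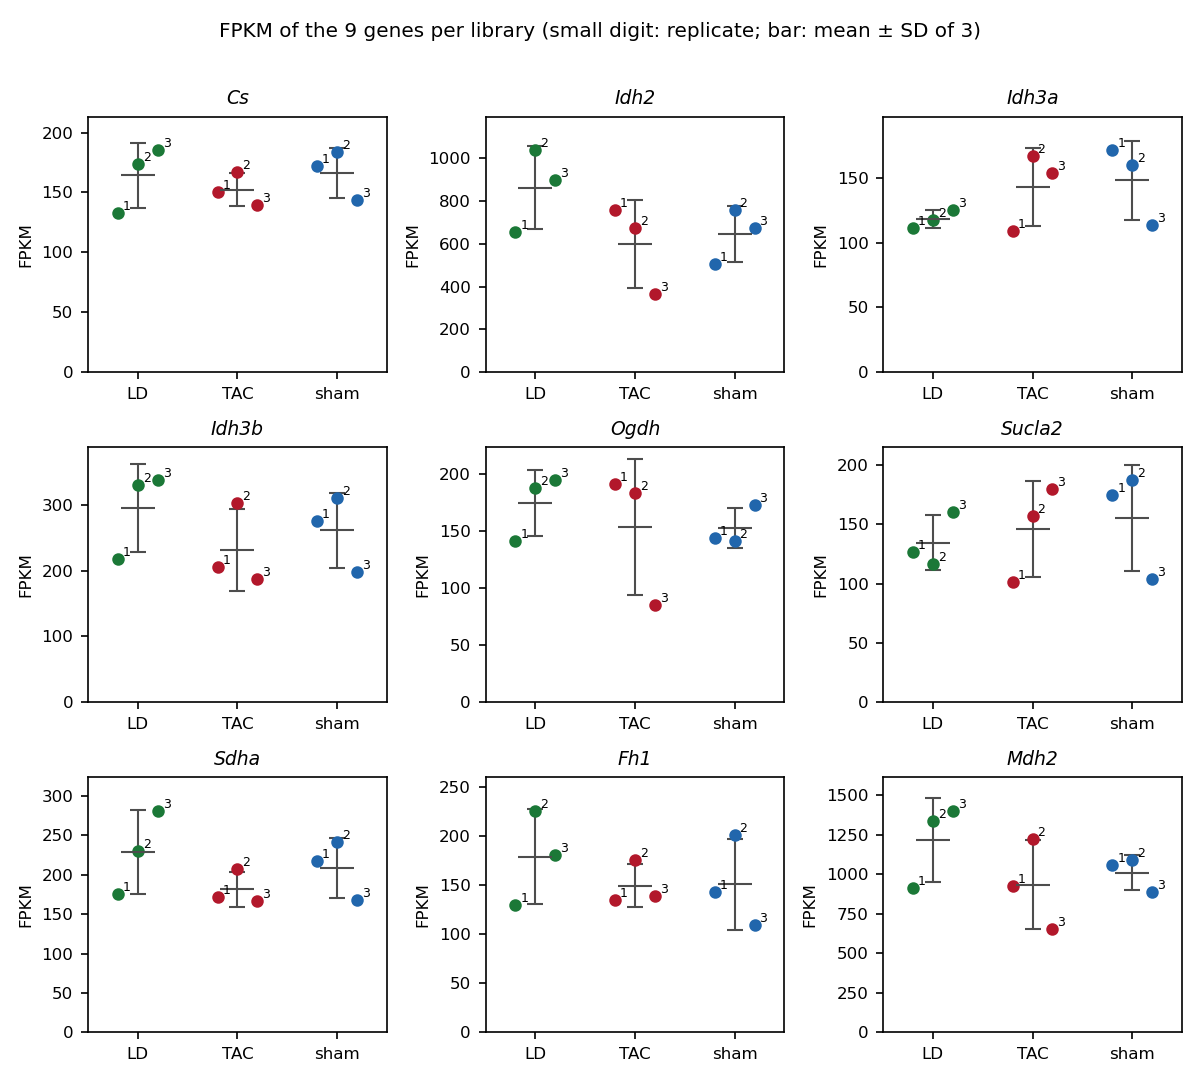
FPKM (linear axis from 0) of each of the 9 genes in LD, TAC and sham, 1 point per library with its replicate number; bars are mean ± SD of 3 libraries. TAC replicate 3 is the lowest library for Idh2 (365), Ogdh (85.1) and Mdh2 (656) but not for Idh3a or Sucla2, and no gene separates any pair of groups.

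No difference between TAC and sham hearts beyond the spread between libraries, 1 per mouse, was found for any of the 9 mRNAs. In limma's moderated test with Benjamini-Hochberg adjustment over 11380 genes, 0 of 9 passed an adjusted p of 0.05 (0% of all genes tested passed). At an unadjusted p under 0.05 the count was also 0 of 9 (5.43% of all genes), and for 0 of 9 were the groups free of overlap (9.84% of all genes). Limma's voom on the recovered fragments called 0 of the 9 as well. The difference in log2(FPKM + 1), TAC minus sham, was below 0 for 8 of 9, with a median of -0.12; the median over all genes tested was -7.2e-05 and 50% of them lay above 0. Sdha differed most, by -0.19 ± 0.24 (limma's SE; 95% interval -0.70 to 0.32), from a mean of 182 ± 22.4 FPKM in TAC and 209 ± 38.0 FPKM in sham (SD, n = 3 each). The intervals of the 9 genes reached down to between -0.56 and -0.79 and up to between 0.32 and 0.60, so differences within those bounds were not told apart from 0 with 3 mice a group. A lower level of an mRNA in whole heart can come from less RNA per cell or from fewer cells that make it, which cannot be told apart here. Without TAC replicate 3, Idh2 differed by 0.17, Ogdh by 0.30 and Mdh2 by 0.08 in place of -0.16, -0.07 and -0.15, and the median of the 9 was -0.04. The median was -0.05 without sham replicate 2, -0.25 without TAC replicate 2 and -0.23 without sham replicate 3.

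Between decoction-treated and water-treated TAC hearts no difference passed the same test either, although 7 of the 9 mRNAs had a positive estimate. Of the 9 genes, 0 passed after adjustment (0% of all genes), 0 had an unadjusted p under 0.05 (8.82% of all genes) and 0 had groups free of overlap (11.9% of all genes). The difference, LD minus TAC, was above 0 for 7 of 9, with a median of 0.26, while the median of all genes tested was -0.10 and 39.6% of them lay above 0. Idh2 averaged 863 ± 194 FPKM in LD and 599 ± 207 FPKM in TAC (SD, n = 3 each), a difference of 0.57 ± 0.29 (95% interval -0.06 to 1.20; adjusted p = 0.583, unadjusted p = 0.0735). Mdh2 averaged 1218 ± 264 FPKM in LD and 934 ± 283 FPKM in TAC, a difference of 0.40 ± 0.26 (adjusted p = 0.633). Idh3b differed by 0.35 ± 0.27 and Sdha by 0.31 ± 0.24, while the catalytic subunit Idh3a differed by -0.26 ± 0.24 and Sucla2 by -0.09 ± 0.28. Without TAC replicate 3 the median of the 9 was 0.17, Idh2 differed by 0.24, Mdh2 by 0.17 and Ogdh by -0.12. Without LD replicate 1 the median was 0.44 and Mdh2 differed by 0.60, and without TAC replicate 2 the median was 0.41 and Mdh2 differed by 0.62. Leaving out TAC replicate 3 and LD replicate 3 together put the median at 0.06.

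For decoction-treated against sham hearts the test also gave no call. Of the 9 genes, 0 passed after adjustment (0% of all genes), 0 had an unadjusted p under 0.05 (5.11% of all genes) and 0 had groups free of overlap (13.2% of all genes). The difference, LD minus sham, was above 0 for 6 of 9, with a median of 0.17, against -0.11 over all genes tested, 37.2% of which lay above 0. The median was 0.33 without LD replicate 1, 0.08 without LD replicate 2, 0.06 without LD replicate 3 and -0.015 without sham replicate 3, so leaving out 1 library turned its sign. Idh2 averaged 863 ± 194 FPKM in LD and 646 ± 131 FPKM in sham, a difference of 0.41 ± 0.29 (adjusted p = 0.875), and Idh3a averaged 118 ± 6.83 FPKM in LD and 148 ± 30.6 FPKM in sham, a difference of -0.31 ± 0.24 (adjusted p = 0.875). The comparisons against TAC and against sham share the LD libraries, and both comparisons that involve TAC share the TAC libraries. An F test over the 3 groups called 0 of 9 (0% of all genes) and found 0 of 9 at an unadjusted p under 0.05 (6.76% of all genes), with the smallest p for Idh2 (0.173, adjusted p = 0.792).

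**Figure D3:**
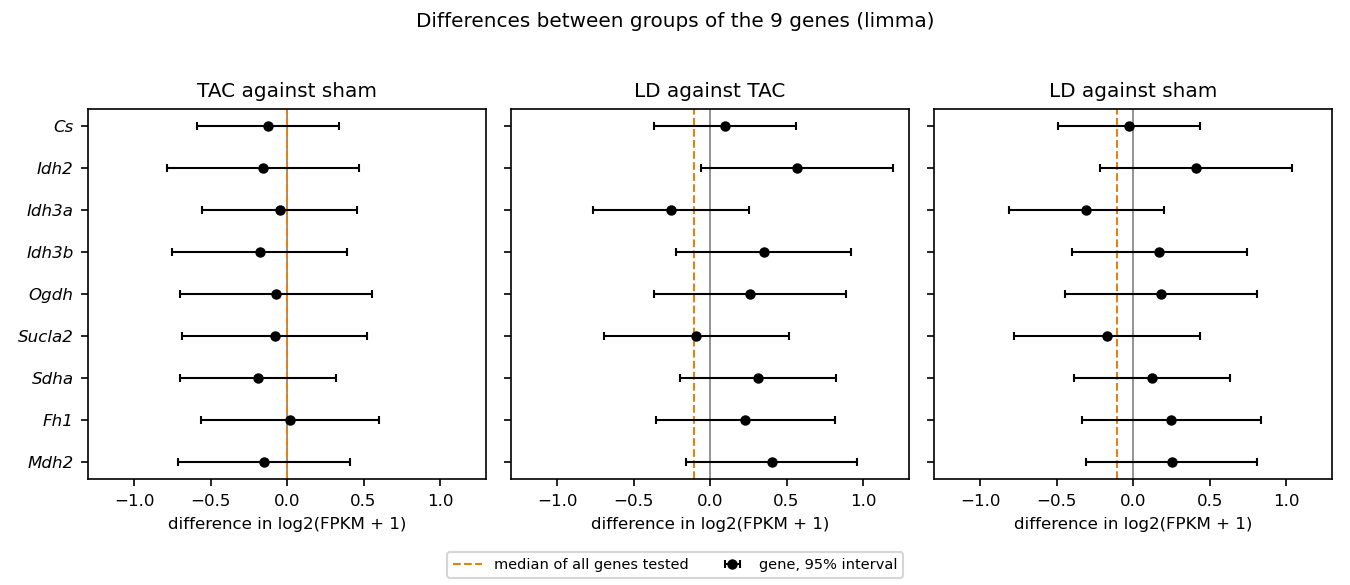
Differences in log2(FPKM + 1) of the 9 genes for TAC against sham, LD against TAC and LD against sham; points are limma's estimates, bars 95% intervals and the dashed line the median of all genes tested. Every interval holds 0, and Idh2 has the highest estimate in both LD comparisons (0.57 and 0.41).

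The split of libraries by count steps also divided the groups, so each comparison was recomputed within it, a choice made after seeing the data. Among the 4 libraries with counts mostly in steps of 2, TAC replicates 2 and 3 differed from sham replicates 1 and 3 by a median of -0.04 over the 9 genes, with 0 called. Among the other 5, TAC replicate 1 differed from sham replicate 2 by a median of -0.50, LD differed from TAC replicate 1 by 0.37 and LD differed from sham replicate 2 by -0.11, with 0 called in each. In these last fits a single library stood for TAC and for sham and was assumed to vary as LD did. With the count steps as a term in the fit of all 9 libraries, the median was -0.12 for TAC against sham, 0.11 for LD against TAC and 0.05 for LD against sham, and Idh2 differed by 0.24 between LD and TAC.

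The 9 other genes of the cycle likewise gave no call. In TAC against sham 7 of 9 lay below 0 (median -0.23), in LD against TAC 8 of 9 above 0 (median 0.23) and in LD against sham 5 of 9 above 0 (median 0.018), and none had an unadjusted p under 0.05. In LD against TAC the largest difference belonged to Sdhb (0.63 ± 0.33, unadjusted p = 0.0810), followed by Idh3g (0.44 ± 0.38), Sdhc (0.33 ± 0.26), Dlst (0.27 ± 0.20) and Suclg1 (0.23 ± 0.24). Dlst was the single one of these and the 9 members whose groups were free of overlap in any comparison. Over all genes tested that share was 9.84% in TAC against sham and 11.9% in LD against TAC. Dlst measured 128, 151 and 167 FPKM in LD, 127, 123 and 119 FPKM in TAC, and 163, 164 and 140 FPKM in sham, so every TAC library was below every library of the other groups. In TAC against sham Dlst differed by -0.34 ± 0.20 (unadjusted p = 0.120), Sdhc by -0.31 ± 0.26 and Idh3g by -0.30 ± 0.38. The steep low value of TAC replicate 3 recurred in Sdhb (556 FPKM, against 1045 to 1922 in the other 8 libraries) and Idh3g (85.3, against 168 to 337), whereas Dld (119 FPKM) and Suclg2 (11.5 FPKM) were highest in that library.

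The balance between members was described by each gene's share of the summed FPKM of the 9 genes, with no test. The summed level was 2605, 3756 and 3763 FPKM in LD, 2746, 3256 and 2072 FPKM in TAC, and 2859, 3272 and 2569 FPKM in sham. Cs made up 4.64% to 5.12% of the sum in LD, 5.14% to 6.73% in TAC and 5.58% to 6.02% in sham, so its share was lower in every LD library than in any other by a narrow margin. After correction of each library for its trend with GC content it was 4.75% to 5.17% in LD, 4.95% to 6.52% in TAC and 5.62% to 6.08% in sham, and LD and TAC overlapped. Idh3a made up 3.13% to 4.28% in LD, 3.98% to 7.42% in TAC and 4.42% to 5.99% in sham, free of overlap between LD and sham. After GC correction its share was 3.44% to 4.25% in LD and 4.75% to 5.86% in sham, again free of overlap. In TAC it was 4.23% to 6.29%. For the other 7 genes the shares of all 3 groups overlapped. As deposited, shares were free of overlap for 0 of 9 genes in TAC against sham, 1 in LD against TAC and 2 in LD against sham. By level, 9.84%, 11.9% and 13.2% of all genes tested were free of overlap in these comparisons. Within IDH3, the ratio of Idh3a to Idh3b was 0.511, 0.356 and 0.371 in LD, 0.530, 0.549 and 0.822 in TAC, and 0.620, 0.514 and 0.571 in sham. All LD libraries were lowest, with LD replicate 1 barely below sham replicate 2; this ratio was chosen after its values were seen. After GC correction it was 0.394 to 0.50 in LD, 0.530 to 0.679 in TAC and 0.497 to 0.606 in sham, so LD and sham overlapped. The ratio of Idh2 to Idh3a, the NADP-dependent against the NAD-dependent enzyme, was 5.87, 8.83 and 7.16 in LD, 6.94, 4.04 and 2.37 in TAC, and 2.94, 4.76 and 5.95 in sham, with overlap between all groups. After GC correction this ratio was 5.91 to 7.80 in LD and 3.02 to 5.35 in sham, free of overlap. In TAC it was 3.07 to 6.42 and overlapped both. Idh2 and Idh3a had the highest and the lowest LD minus sham estimates of the 9, so their ratio restates those differences. The ratio was not planned, other ratios were computed too, and the GC correction was chosen after seeing the data.

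Variation of the genes across the 9 libraries is described here by Pearson's r of log2(FPKM + 1), with no test, since all genes of a library share its depth and base composition. Cs, Idh3b, Sdha, Fh1 and Mdh2 had r between 0.717 and 0.940 over their 10 pairs. With TAC replicate 3 and LD replicate 3 left out these were 0.762 to 0.955. Idh3a and Sucla2 had r = 0.863 with each other (0.921 without those libraries), and Idh2 and Ogdh r = 0.852 (0.540 without them). Between these pairs r was negative, from -0.535 to -0.418. The sets were not sharply separate. Idh2 and Ogdh had r from 0.249 to 0.80 with the 5 genes, including 0.80 for Idh2 with Mdh2 and 0.768 for Ogdh with Mdh2, above the 0.717 of Fh1 with Mdh2. Idh3a and Sucla2 had r from 0.014 to 0.458 with the 5, and from 0.379 to 0.739 without the 2 outer libraries. With the mean of the 9 standardised genes, Idh3b had the highest r (0.989) and Idh3a the lowest (0.343) over 9 libraries. Without TAC replicate 3 and LD replicate 3, Idh3b was again highest (0.982), Idh3a stood at 0.698, and Ogdh (-0.022) and Idh2 (0.29) were lowest.

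In TAC replicate 3, Idh2 lay 0.89 below its mean over the 9 libraries on the log2 scale, Ogdh 0.86 below and Mdh2 0.65 below, but Sucla2 lay 0.34 above and Idh3a 0.19 above. In sham replicate 3, Fh1 lay at -0.51 and Sucla2 at -0.44, while Ogdh lay at 0.15. In LD replicate 2, Idh2 lay 0.62 and Fh1 0.53 above their means and Sucla2 0.29 below. Sucla2 has the lowest GC content of the 9 longest coding transcripts at 43.2%, followed by Idh3a at 46.9%, Fh1 at 47.7%, Sdha at 48.5%, Cs at 50.4%, Idh3b at 52.1%, Ogdh at 52.5% and Idh2 and Mdh2 at 55.4%. Over 10987 genes with a transcript, Spearman's rho was taken between a gene's deviation and its GC content. It was -0.411 in TAC replicate 3, 0.348 in LD replicate 2, 0.254 in sham replicate 3 and 0.197 in LD replicate 3. In the other 5 libraries it lay between -0.190 and 0.181. With transcript length rho was -0.249 in LD replicate 2, 0.222 in TAC replicate 3 and -0.209 in LD replicate 3. In the rest it lay between -0.109 and 0.132, and no correction for length was made. Genes with a GC content under 45.7% averaged 0.43 above their means in TAC replicate 3 and 0.38 below in LD replicate 3. Genes above 55.2% averaged -0.14 in TAC replicate 3 and -0.12 in LD replicate 3. In LD replicate 3 genes of low and of high GC content were thus both below their means.

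**Figure D4:**
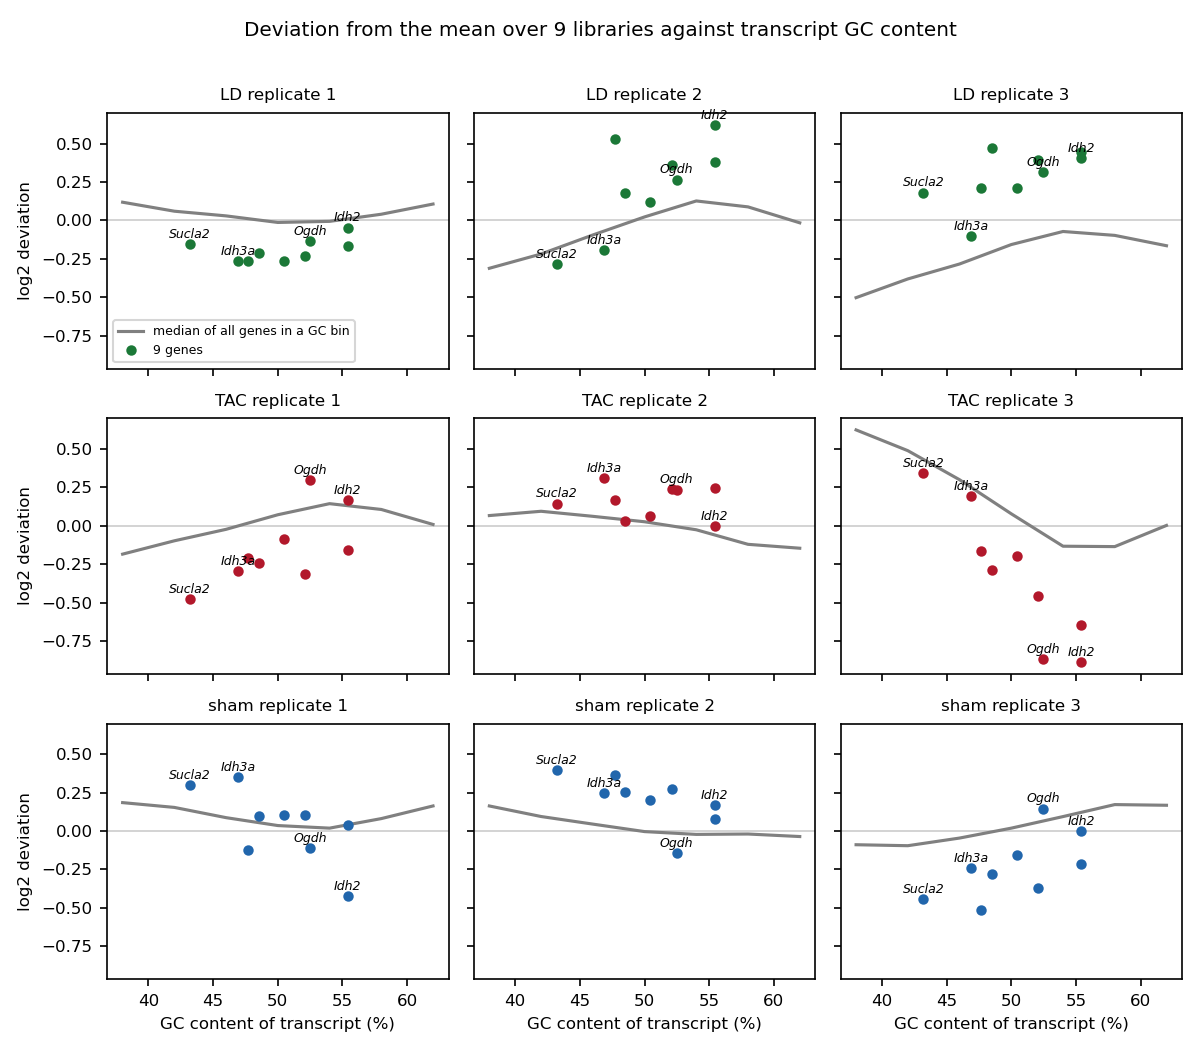
Deviation of a gene from its mean over 9 libraries, log2(FPKM + 1), against GC content of its longest coding transcript (%), 1 panel per library; dots are the 9 genes and the grey line the median of all genes in bins of GC content. The line slopes down in TAC replicate 3, where Sucla2 lies at 0.34 and Idh2 at -0.89, and up in LD replicate 2, where they lie at -0.29 and 0.62.

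After a correction for GC content in each library, a choice made after seeing the data, the deviations in TAC replicate 3 were -0.64 for Idh2, -0.70 for Ogdh, -0.40 for Mdh2, 0.03 for Sucla2 and 0.07 for Idh3a. Fh1, low in GC content, lay at 0.56 in LD replicate 2 and -0.46 in sham replicate 3 after correction, close to its deposited 0.53 and -0.51. Corrected correlations were 0.766 for Idh3a with Sucla2, 0.754 for Idh2 with Ogdh and 0.751 to 0.940 among the 5, and values between the pairs lay between -0.306 and 0.003. Idh3a and Sucla2 then had r from 0.262 to 0.837 with the 5. Sucla2 with Cs (0.837) and with Idh3b (0.783) exceeded Sucla2 with Idh3a, so for Sucla2 this pair did not stand apart. For Idh3a, Sucla2 was still the member of highest r, ahead of Cs (0.678). In LD against TAC the corrected median of the 9 was 0.25, Idh2 differed by 0.42 and Mdh2 by 0.25, Sucla2 by 0.09 and Idh3a by -0.17. None of the 9 was called in any comparison after this correction. Why the libraries differ in their trend with GC content was not tested.

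**Figure D5:**
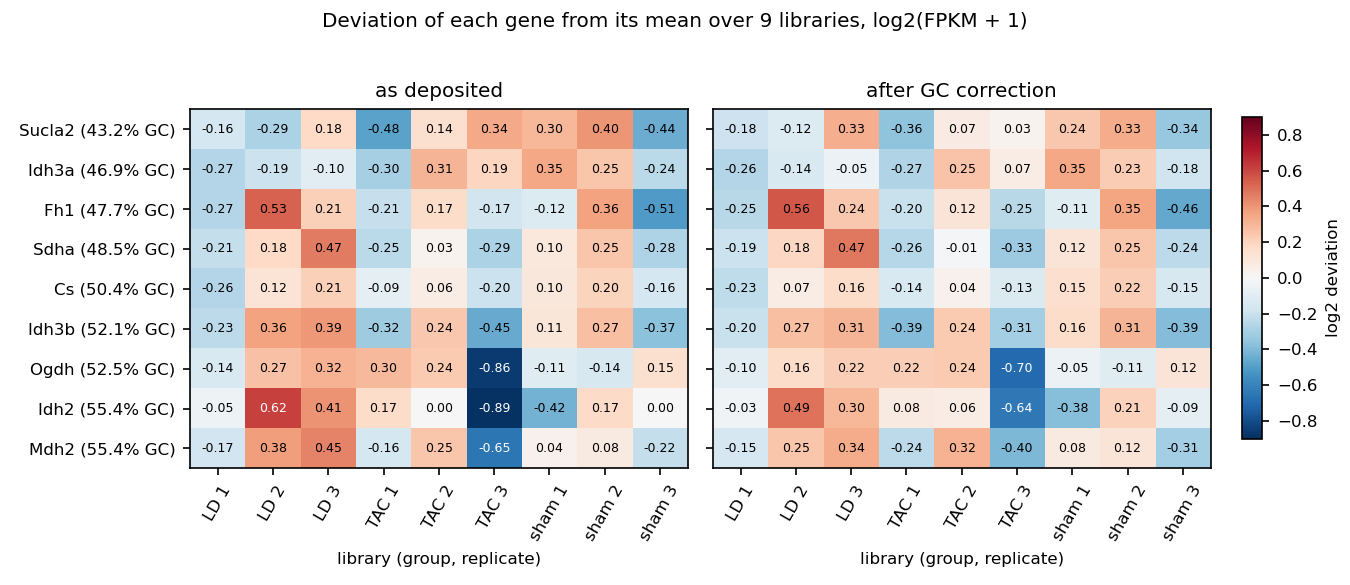
Deviation of each of the 9 genes (rows, by rising GC content) from its mean over 9 libraries (columns) in log2(FPKM + 1), as deposited and after GC correction; red is above and blue below the mean. In the column of TAC replicate 3 the values pass from 0.34 for Sucla2 at the top to -0.89 for Idh2 and -0.65 for Mdh2 at the bottom as deposited, and from 0.03 to -0.64 and -0.40 after correction.

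By the same measure over 9 libraries, the genes outside the members most like the mean of their standardised values were Xrcc4 (r = 0.957), Rps3 (0.956), Tsen34 (0.946), Echs1 (0.943), Sdhc (0.939), BC023829 (0.931), Rab5c (0.925), Eif4h (0.924), Ube2g2 (0.922) and Fuca1 (0.922). Echs1, enoyl-CoA hydratase of mitochondrial fatty acid oxidation, and Sdhc were the mitochondrial enzyme genes among them. Xrcc4 was a low gene, at 0.517 to 3.74 FPKM.

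Genes that feed or surround the cycle gave no call after adjustment in any of the 3 comparisons. The pyruvate dehydrogenase complex, which makes acetyl-CoA from pyruvate, was listed with its kinases, phosphatases and the pyruvate carrier (13 genes). The kinases, which switch the complex off, held every gene of this list with an unadjusted p under 0.05. Of the 13 these were 1 in TAC against sham (5.43% of all genes) and 1 in LD against sham (5.11%). In LD against TAC 1 was higher and 2 were lower (8.82% of all genes in either direction). Pdk4 measured 310, 279 and 306 FPKM in LD, 384, 637 and 638 FPKM in TAC, and 455, 548 and 444 FPKM in sham, so all LD libraries were below all others. Groups were free of overlap for 11.9% of all genes in LD against TAC and 13.2% in LD against sham. The difference of Pdk4 was -0.85 ± 0.24 in LD against TAC (adjusted p = 0.495) and -0.69 ± 0.24 in LD against sham (adjusted p = 0.875). Pdk2 measured 80.8, 88.6 and 84.2 FPKM in LD, 63.7, 67.1 and 38.5 FPKM in TAC, and 68.4, 80.6 and 76.0 FPKM in sham, a difference of 0.61 ± 0.24 in LD against TAC (adjusted p = 0.537). Pdk3, at 0.0672 to 2.82 FPKM a low gene, differed by 0.82 in TAC against sham and by -1.02 in LD against TAC.

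Of 9 factors listed for assembly and lipoylation, 8 were tested. Lipt2, which transfers octanoyl groups for lipoic acid synthesis, differed by 1.11 ± 0.41 in TAC against sham, with TAC replicate 1 at 1.84 and replicates 2 and 3 at 6.13 and 7.44 FPKM, against 1.51 to 1.66 FPKM in sham. The succinate dehydrogenase assembly factors Sdhaf1 (0.59 ± 0.25) and Sdhaf3 (0.95 ± 0.39) had the next such values, in LD against TAC. Both had an unadjusted p under 0.05 (8.82% of all genes), and neither passed after adjustment. In LD against sham the smallest p of this list belonged to Mrps36 (0.34 ± 0.24), an adaptor of the oxoglutarate dehydrogenase complex.

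Among 18 tested genes of shuttles and anaplerosis and 13 of general mitochondrial content, none had an unadjusted p under 0.05. The smallest p in the first list belonged to the malic enzyme Me2 in TAC against sham (0.44 ± 0.28) and LD against TAC (-0.51 ± 0.28), and to the oxoglutarate carrier Slc25a11 in LD against sham (1.35 ± 0.69), which ranged from 1.01 to 18.0 FPKM over the libraries. In the second list it belonged to the chaperonin Hspd1 in TAC against sham (-0.54 ± 0.32) and LD against sham (-0.44 ± 0.32) and to the outer membrane channel Vdac1 in LD against TAC (-0.34 ± 0.24). The median of the content list was -0.14, 0.02 and -0.06 in TAC against sham, LD against TAC and LD against sham.

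Of the 9 transcription regulators listed, Esrra measured 137, 92.3 and 84.4 FPKM in LD, 85.3, 80.6 and 105 FPKM in TAC, and 159, 114 and 143 FPKM in sham. It differed by -0.61 ± 0.24 in TAC against sham (adjusted p = 0.842), with all TAC libraries below all sham libraries. Over all genes tested 9.84% had groups free of overlap in that comparison. The coactivator Ppargc1b differed by -0.63 ± 0.28 in TAC against sham and by -0.61 ± 0.28 in LD against sham, and Gabpa by -0.73 ± 0.26 in LD against TAC (adjusted p = 0.537). All 9 regulators lay below 0 in LD against sham, with a median of -0.34; over all genes tested the median was -0.11 and 37.2% lay above 0.

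Markers of cell types were read beside these values. In LD against TAC 8 of 12 cardiomyocyte markers lay above 0 (median 0.23), against 39.6% of all genes tested. Of these markers Myh6 at 0.63, Tnni3 at 0.53, Myl3 at 0.73 and Myom2 at 0.79 had unadjusted p under 0.05 (8.82% of all genes). In TAC against sham 10 of 12 lay below 0 (median -0.14), where 50% of all genes lay above 0. Myh6 at -0.54 and Tnni3 at -0.50 had unadjusted p under 0.05 there (5.43% of all genes). Over the 9 libraries the summed cardiomyocyte level and the summed level of the 9 cycle genes had r = 0.808, a description. The same r was 0.957 for the shuttle and anaplerosis list, 0.902 for the 9 other cycle genes and 0.872 for mitochondrial content. It was 0.594 for assembly and lipoylation, -0.145 for the pyruvate dehydrogenase list and -0.539 for the regulators. For endothelial, fibroblast and macrophage markers it was 0.317, 0.194 and 0.162. Such sums mostly follow their most abundant genes, for mitochondrial content Slc25a4 (mean 7615 FPKM). Single content genes had r from -0.229 (Tomm40) to 0.899 (Slc25a4) with the mean of the 9 standardised genes. With the mean of the 9 standardised genes, single cardiomyocyte markers ran from r = -0.580 for Ryr2 to 0.869 for Mb. Fibroblast markers summed to 1152 to 1737 FPKM in LD, 1565 to 2511 in TAC and 1007 to 1206 in sham. Of these, 10 of 10 lay above 0 in TAC against sham (median 0.65) and 9 of 10 below 0 in LD against TAC (median -0.74). At an unadjusted p under 0.05 the counts were 6 of 10 and 4 of 10 (5.43% and 8.82% of all genes). Endothelial markers summed to 3118 to 4501 FPKM in LD, 3110 to 3938 in TAC and 2771 to 4386 in sham, and macrophage markers to 250 to 366 FPKM in LD, 275 to 415 in TAC and 245 to 397 in sham. Atrial markers summed to 175 to 559 FPKM in LD, 110 to 463 in TAC and 77.3 to 114 in sham; they include Nppa, which ventricles under load also express. Erythroid markers were highest in TAC replicate 2 at 11051 FPKM, against 516 to 3342 in the other 8 libraries. The part of these cell types in the levels of the cycle genes was not tested.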

How the data were processed

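The authors deposited 1 table of FPKM values (fragment counts divided by gene length and library size), with 1 column for each of 9 hearts. Per the submitters' processing notes the tools were CASAVA 1.8, fastp 0.20.0, HISAT2 2.1.0, Cufflinks 2.2.1, HTSeq 0.7.2 and DESeq, with GRCm38 as genome build. The annotation is not given in the sources used here, nor is the tool behind each value. Libraries came from poly-A RNA of 3 biological repeats a group. With 1 library per heart, p-values measure the spread between these mice together with that between their libraries. Relative depths of the libraries were first estimated from the commonest ratio of low FPKM values between libraries. For all 16262 genes above 0, values scaled by these depths were whole multiples of a step shared within the gene, within a tolerance of 0.001. This gave the fragments, the library totals and the gene lengths used. For the 9 members counting error was 0.437% to 2.52% of a value, small beside the spread between libraries. It is larger for genes of low level.

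Log2(FPKM + 1) was analysed, which shrinks differences of low genes. The 11380 genes that reached an FPKM of 1 in 3 or more libraries entered limma 3.58.1 (R 4.3.3). All 3 group means were fitted together, leaving 6 residual degrees of freedom, with a trended empirical Bayes step. Moderated tests were two-sided, with Benjamini-Hochberg adjustment over all genes tested and a threshold of 0.05. The fit was tested on simulated data. GC content came from the longest coding transcript of a gene, and coordinates from GENCODE M21 (GRCm38).

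The members and lists were chosen with earlier results of these data known. All 9 members and 9 other genes of the cycle are named; 1 listed gene is not reported here. Of each further list, genes with an unadjusted p under 0.05 are named (at most 4 per comparison), or else the 1 of smallest p, besides the 10 genes most alike. The alternatives tried are given with their effect in the closing section. A planned comparison of protein sequences was not made.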

Additional observations from a re-analysis of the deposited data

How the results depend on the processing

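Each of the 27 results (a gene in a comparison) was recomputed under up to 25 alternatives: pseudocounts, filters, scalings, fits and weights, voom on recovered fragments, and libraries left out. Of 657 such values, 0 were called and 45 had the other sign, while 12 results never changed sign. The smallest adjusted p was 0.152, for Idh2 in LD against sham with array weights. With 3 mice a group, differences within the intervals given cannot be told from 0. The libraries also differ in their trends with GC content and transcript length.

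Over all genes, the limma fit called 0 in each comparison (618, 1004 and 581 at an unadjusted p under 0.05 in TAC against sham, LD against TAC and LD against sham). LD against TAC stayed at 0 under every alternative run. Array weights called 9 in TAC against sham, 135 in LD against sham and 44 in the F test. The filter at an FPKM of 5 called 2, 3 and 2 in these, and voom 4, 3 and 3. Fitting only 2 groups called 10 in LD against sham, and the libraries with counts in steps of 2 called 6 in TAC against sham. Leaving out libraries gave 0 to 13 in TAC against sham (13 without TAC replicate 1), 0 to 8 in LD against sham and 0 to 8 in the F test (8 in both without TAC replicate 1). The cause of these calls was not tested, and none was among the 9 genes.

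Signs that differed in TAC against sham were Idh3a (0.20), Idh3b (0.024) and Sucla2 (0.32) in libraries with counts in steps of 2, Ogdh (0.44) and Fh1 (-0.57) in those with steps of 1, where the median was -0.50, Ogdh (0.13) and Fh1 (-0.024) with array weights, and Fh1 (-0.039) with GC correction. In LD against TAC they were Idh3a (0.11), Ogdh (-0.15) and Sucla2 (0.39) with steps of 1, Sucla2 with median-of-ratios scaling (0.052) and GC correction (0.094), and Cs rescaled to equal sums (-0.013). In LD against sham they were Idh3b (-0.10), Sdha (-0.11) and Fh1 (-0.20) with steps of 1, where the median was -0.11, and Cs with median-of-ratios scaling (0.10). The cause was not tested.

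Leaving out libraries gave, in TAC against sham, ranges of -0.36 to 0.17 for Idh2, -0.23 to 0.13 for Idh3a, -0.28 to 0.30 for Ogdh, -0.35 to 0.16 for Sucla2, -0.19 to 0.25 for Fh1 and -0.37 to 0.079 for Mdh2. In LD against TAC they were -0.059 to 0.24 for Cs, -0.20 to 0.46 for Ogdh and -0.33 to 0.080 for Sucla2. In LD against sham they were -0.13 to 0.12 for Cs, -0.015 to 0.37 for Idh3b and -0.040 to 0.30 for Sdha.

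The labels do not say whether replicate numbers pair the samples, and no sign of pairing was seen. The correlation of deviations between libraries of 1 number ranged from -0.24 to 0.15. Between libraries of different number it ranged from -0.27 to 0.37. With 3 mice a group these values cannot exclude a pairing. A replicate block called 0 genes in every comparison and left the medians at -0.12, 0.26 and 0.17, with 0.690 as the smallest adjusted p of a member.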
